A study of Mus musculus with 12 samples.

Results

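Desmin, myosin heavy chain and 5 other contractile genes carried 10 of the 2498 cytosines listed in a survey of RNA 5-methylcytosine (m5C) across 6 mouse tissues, and these 10 cytosines are described here. The genes were Myh1, Myh4, Actn3, Myoz1, Des, Atp2a2 and Dmpk, 7 of the 1964 genes in the table, and every listed cytosine under those gene names was taken. Dmpk had 3 sites, Des had 2 and the other genes had 1 each. The study treated polyadenylated RNA with bisulfite, which turns unmodified cytosine into a base read as T and leaves m5C read as C, so the m5C level is the share of reads that stayed C. All 12 libraries came from C57BL/6 mice of genotype WT aged 8 to 10 weeks, with no other allele or treatment in the labels. Muscle had 4 libraries and heart and liver 1 each, all female. Lung, small intestine and spleen had 2 each, a female and a male one. The labels say only "muscle" and do not name the muscle. The table holds 1 coverage and 1 level per tissue, so no value below has an error between animals, and the intervals and tests cover counting error only.

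The sarcomere is built from thick filaments of myosin and thin filaments of actin, which are anchored at the Z-disc and tied to the rest of the cell by desmin filaments. Contraction starts when calcium leaves the sarcoplasmic reticulum and ends when it is pumped back. Skeletal muscle and heart use different members of many of the same gene families, and fast skeletal fibres have isoforms that adult heart muscle largely lacks. m5C in messenger RNA is placed by methyltransferases of the NSUN family, is usually partial at any given cytosine, and has been linked to RNA export and stability.

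Coverage summed over all listed cytosines ran from 261562 reads in lung to 4683960 in muscle, and the median coverage of sites with at least 20 reads ran from 77 in spleen to 266 in muscle. Only sites with at least 20 reads in a tissue are given a level there as a result. Blank cells hold no value, and the smallest coverage in any filled cell was 10 reads. The skeletal muscle fibre markers Actn3, Myh1, Myh4 and Ryr1, 4 of a list of 8, had 15 listed sites. All 15 had at least 20 reads in muscle and none had in heart or small intestine. Liver had 2 of them, spleen 1 and lung 12, with 72, 21 and 831 reads in sum against 1731540 in muscle. None of the 8 cardiomyocyte markers chosen had a site analysed here, so the heart column could not be checked that way. Alb, the hepatocyte marker with a listed site, had 1177520 reads in liver, 66 in lung and 29 in muscle.

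The positions are on mm10 and the gene spans are those of RefSeq on GRCm38.p6, the same assembly; exons and untranslated regions were not annotated here. The Myh1 site lies on the plus strand of chromosome 11 at 67210404, 14173 nt from the 3′ end of the gene. The Myh4 site lies on the same strand at 67253539, 6908 nt from the 3′ end. Actn3 has its site on the minus strand of chromosome 19 at 4861677, 461 nt from the 3′ end, and Myoz1 on the minus strand of chromosome 14 at 20650491, 1389 nt from it. The Des sites lie on the plus strand of chromosome 1 at 75367203 and 75367402, 199 nt apart, and are called upstream and downstream below. The Atp2a2 site lies on the minus strand of chromosome 5 at 122459553, 6040 nt from the 3′ end. The Dmpk sites lie on the plus strand of chromosome 7 at 19088219, 19088261 and 19092214 and are called upstream, middle and downstream. The upstream and middle Dmpk sites are 42 nt apart, so the same reads can cover both, and the downstream site is 3953 nt further on and 1607 nt from the 3′ end. No other RefSeq gene spans any of the 10 positions. Within 2000 nt of the 3′ end lay 5 of the 10 sites, and 33.5% of the 2291 listed sites that fell inside the span of their gene.

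The genes fell into those covered in muscle but not heart and those covered in both. Myh4, the myosin heavy chain of the fastest skeletal fibres, had 1359239 reads in muscle, the highest coverage of the 1750 muscle sites with at least 20 reads, and 29.02% of the coverage summed over all sites there. Actn3, the α-actinin that crosslinks actin at the Z-disc of fast fibres, ranked next with 187291 reads. Myoz1, a fast-fibre Z-disc protein that binds calcineurin, had 41470 reads and Myh1, the myosin heavy chain of another fast fibre type, 13738. All of these were blank in heart and small intestine. Together the 10 sites took 36.2% of the summed coverage in muscle, 4.63% in heart and less than 1% in each of the other tissues, with 0.864% in lung the highest of these. In bulk tissue, fewer cells of a type and less RNA per cell cannot be told apart, and coverage at a listed cytosine is not a normalised expression level. Muscle, heart and liver were all female. Between these and lung, small intestine or spleen, which pool both sexes, sex and tissue cannot be told apart.

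**Figure D1:**
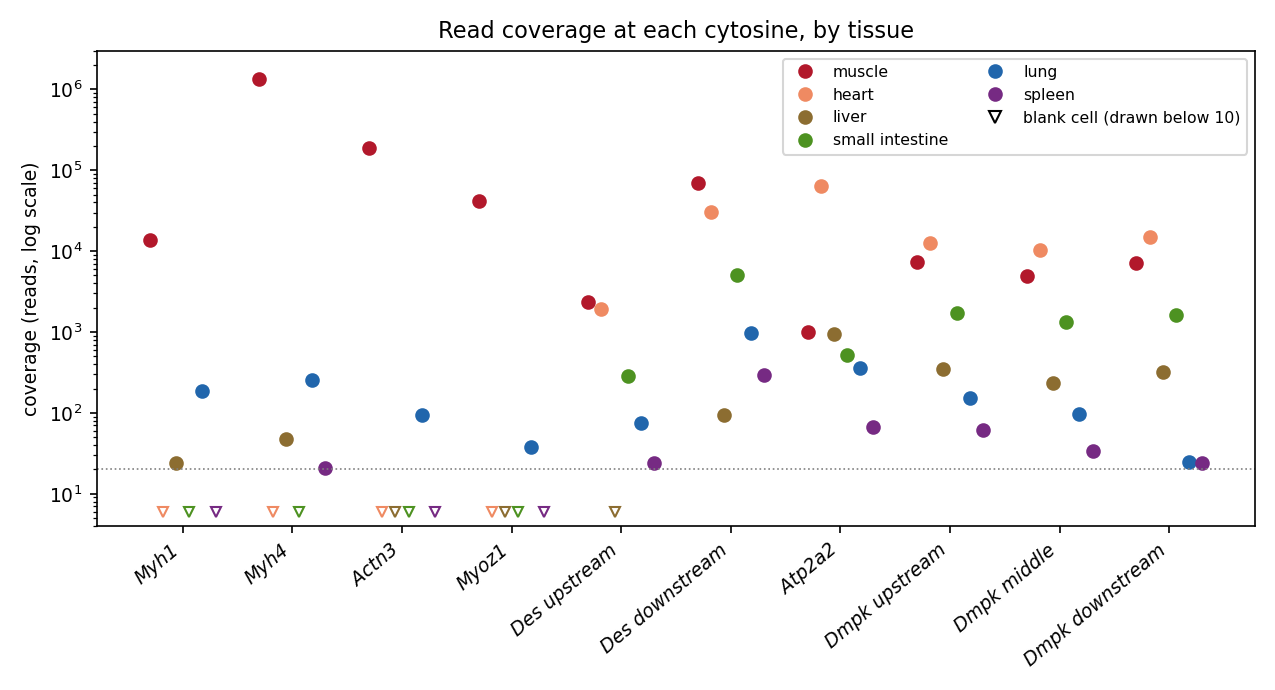
Coverage in reads (log axis) at each of the 10 cytosines, with 1 point per tissue and open triangles for blank cells, which are drawn below 10 only to be visible; the dotted line marks 20 reads. Myh1, Myh4, Actn3 and Myoz1 have 13738 to 1359239 reads in muscle and are blank in heart, whereas Des, Atp2a2 and Dmpk have 1939 reads or more in heart.

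Des, Atp2a2 and Dmpk were covered in heart and muscle alike. The downstream Des site had 69854 reads in muscle and 30831 in heart. Atp2a2, which encodes the calcium pump SERCA2 of heart and slow skeletal fibres and in another splice form that of most cells, had 64394 reads in heart and 1003 in muscle, a ratio of 64.2. The ratio of heart to muscle coverage at the Dmpk sites was 1.67 to 2.08. Small intestine had 5117 reads at the downstream Des site and 1318 to 1724 at the Dmpk sites.

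In muscle all 10 sites had at least 20 reads, and their levels ran from 1.27% to 42.2%. The authors called 9 of the 10 as m5C sites in muscle, where 53.0% of all sites with 20 reads were so called. In heart they called 5 of 6 covered sites, against 52.4% of all. No call of theirs had fewer than 20 reads or a level under 10%. How sites entered the table is not stated, so these shares may depend on the listing. In lung 3 of 10 covered sites were called (11.1% of all sites), in liver 2 of 7 (31.5%), in small intestine 1 of 6 (18.5%) and in spleen 0 of 7 (9.66%).

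**Figure D2:**
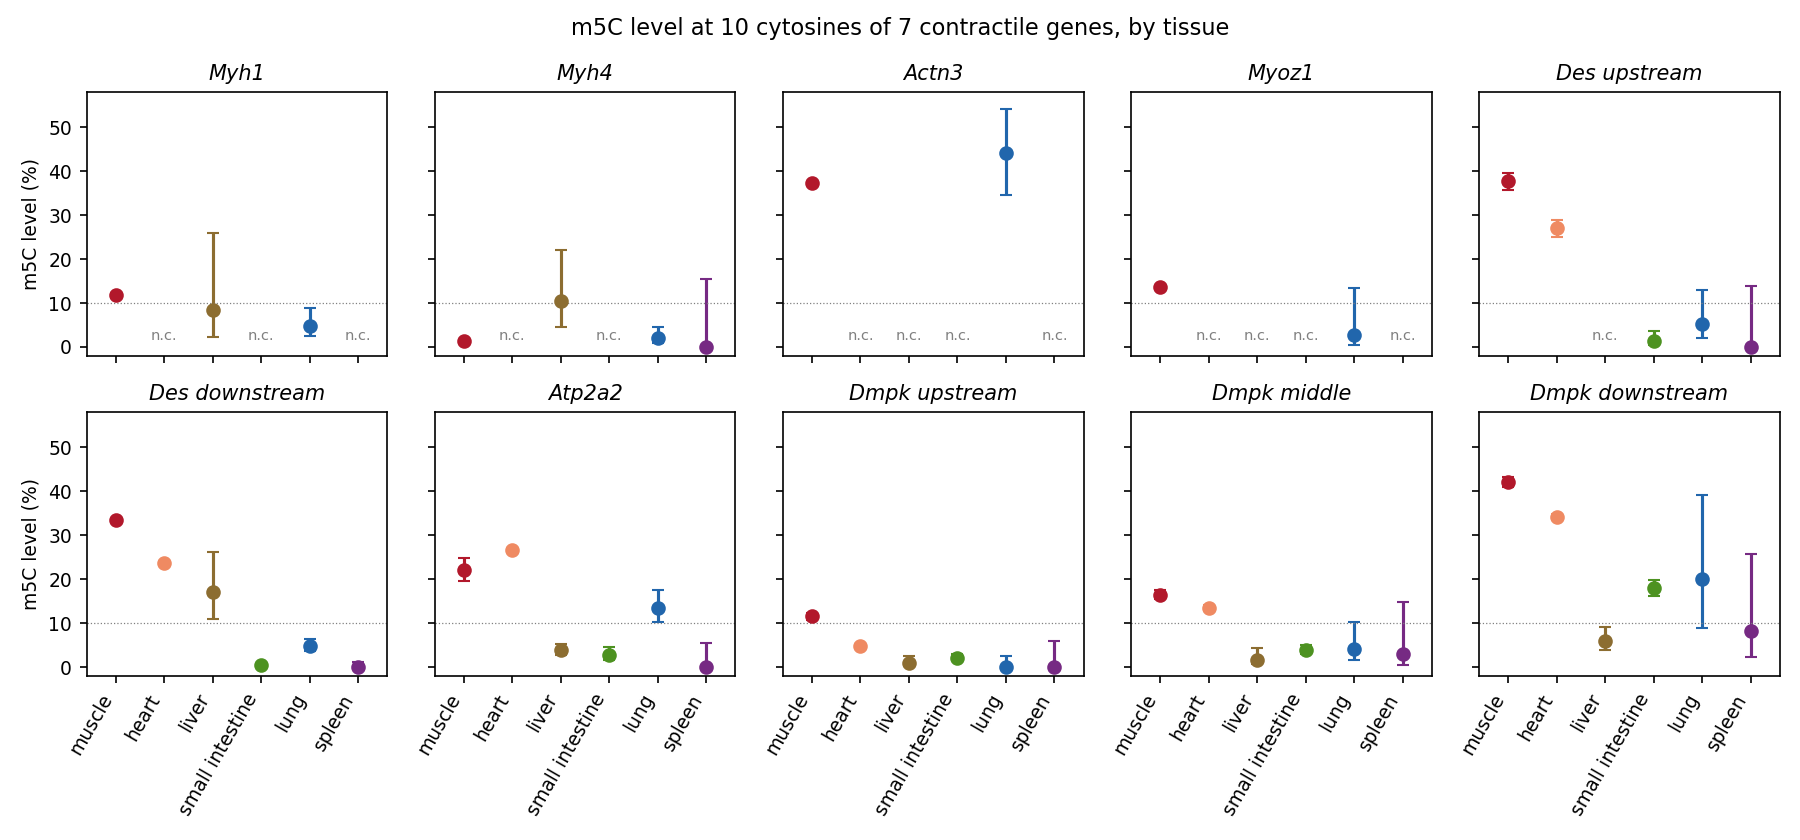
m5C level (%) at each cytosine in the 6 tissues, with 95% Wilson intervals that cover counting error; n.c. marks fewer than 20 reads and the dotted line marks 10%. Muscle and heart have the highest points at the Des, Atp2a2 and Dmpk sites, Actn3 is high in muscle and lung, and Myh4 in muscle lies at 1.27%.

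The fast-fibre genes differed widely among themselves. Actn3 stayed unconverted in 37.4% of muscle reads (95% Wilson interval 37.2 to 37.6), the 120th highest level of the 1750 muscle sites. Myoz1 had 13.5% (13.2 to 13.9) and Myh1 11.8% (11.3 to 12.3). Myh4 had 1.27% (1.25 to 1.29). The intervals of these levels do not overlap, so the order Actn3, Myoz1, Myh1, Myh4 in the muscle column is larger than the counting error. The most covered of the 4 sites had the lowest level. Each level is that of a single listed cytosine and does not rank whole transcripts. The authors called Actn3, Myoz1 and Myh1 in muscle but not Myh4, so the place of Myh4 may depend on the listing.

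Myh4 was not called by the authors in muscle. Of its 48 reads in liver 5 were unconverted, which is 10.4% (4.53 to 22.2), and this is the only tissue in which the authors called the site. Lung had 5 of 255 reads unconverted, 1.96% (0.840 to 4.51), and spleen 0 of 21, for which the interval reaches 15.5%. The difference of muscle from liver was -9.15 points (Fisher's exact adjusted p = 0.000931), smaller in size than the 10 points asked of a call. The level of 10.4%, the authors' call in liver and the difference from muscle all rest on those same 48 reads. The test is therefore no independent check of the liver level, and the difference may depend on the listing. Myh1 and Myh4 belong to a cluster of near-identical fast myosin genes, and no source used here says how reads matching several of them were placed, so their counts are uncertain.

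Lung was the only tissue besides muscle with 20 reads at all of these fast-fibre sites. Actn3 had 42 of 95 lung reads unconverted, 44.2% (34.6 to 54.2), the tenth highest level of the 1184 lung sites. The difference from muscle was 6.80 points and did not pass the test (Fisher's exact adjusted p = 0.235). Myh1 had 4.79% of 188 lung reads (2.54 to 8.85), 6.99 points below muscle (Fisher's exact adjusted p = 0.00396), and Myoz1 had 1 of 38 reads unconverted, 2.63% (0.466 to 13.5; adjusted p = 0.0855 in the same test). Myh4 differed by 0.692 points (adjusted p = 0.342, Fisher's exact test). Which cells gave the 831 lung reads at skeletal fibre marker sites was not tested.

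Des, the intermediate filament that links the Z-discs of neighbouring myofibrils, had 2 sites with the same order of tissues. At the upstream site muscle had 37.7% of 2322 reads (35.7 to 39.7), heart 26.97% of 1939 (25.04 to 28.99), lung 5.33% of 75 (2.09 to 12.9), small intestine 1.40% of 285 (0.547 to 3.55) and spleen 0 of 24, for which the interval reaches 13.8%. At the downstream site muscle had 33.4% (33.0 to 33.7), heart 23.7% (23.2 to 24.1), lung 4.89% (3.71 to 6.43), small intestine 0.528% (0.363 to 0.767) and spleen 0 of 293. Liver, with 93 reads at the downstream site alone, had 17.2% (10.9 to 26.1). Muscle, heart, lung and small intestine thus follow in the same order at both sites. At the downstream site the steps from muscle to heart (Fisher's exact adjusted p = 5.29e-214), from liver to lung (0.000335) and from lung to small intestine (8.82e-19) passed the test. At the upstream site lung and small intestine did not differ beyond counting error (Fisher's exact adjusted p = 0.263). Heart and liver did not differ beyond counting error at the downstream site (Fisher's exact adjusted p = 0.288), and neither did small intestine and spleen (adjusted p = 0.901 by the same test). The downstream level was 0.877 times the upstream level in heart, 0.886 times in muscle and 0.917 times in lung.

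The small intestine column had many Des reads and few unconverted ones. Its 27 unconverted reads of 5117 lay 32.9 points below muscle and 4.37 points below lung. Of 8 smooth muscle markers chosen, only Actg2, the γ-actin of gut smooth muscle, had a listed site, with 0 of 1015 reads unconverted in small intestine (the interval reaches 0.377%) and 11.4% of 546 in muscle (8.96 to 14.3). A wider list of 12 genes of smooth muscle, some shared with striated muscle, had 5 sites, among them both Des sites and those of Actg2 and Synm. Of the 5, 3 were called higher in muscle than in heart, where 10.0% of all 1645 sites were. The median of heart minus muscle was -10.1 points, against -0.313 points over all sites. Both Des sites enter this count and median. Synm, an intermediate filament partner of desmin, had 2 of 783 reads in small intestine, 0.255% (0.0701 to 0.926), and 10.9% of 11046 in muscle. Whether the cells that supply Des reads differ between these columns was not tested.

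Dmpk, the myotonic dystrophy protein kinase, showed 3 different levels along the same gene. The upstream site had 11.6% in muscle (10.8 to 12.3, 7431 reads) and 4.81% in heart (4.44 to 5.20, 12442 reads). The middle site, 42 nt further, had 16.4% in muscle (15.4 to 17.5) and 13.5% in heart (12.9 to 14.2). The downstream site had 42.2% in muscle (41.0 to 43.3) and 34.2% in heart (33.4 to 35.0), the highest level of any of the 10 sites in either tissue. The order upstream, middle, downstream held in all 6 tissues. In lung, spleen and liver the intervals of neighbouring sites overlapped, upstream with middle and middle with downstream, and the steps there were not tested.

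Outside striated muscle Dmpk was methylated least at the upstream site and most at the downstream one. Small intestine had 2.15%, 3.87% and 18.01% (16.2 to 19.96, 1621 reads) from upstream to downstream, and liver 0.860%, 1.69% and 5.96% (3.85 to 9.11, 319 reads). Lung had 0 of 152 reads, 4.17% of 96 and 20% of 25. Spleen had 0 of 61, 2.94% of 34 and 8.33% of 24. The downstream level was 7.12 times the upstream one in heart, 3.65 times in muscle, 8.39 times in small intestine and 6.93 times in liver. The ratio of downstream to middle level was 2.53 in heart and 2.57 in muscle, and 4.66 in small intestine. At the downstream site liver minus small intestine was -12.1 points (Fisher's exact adjusted p = 5.95e-08), while lung, with 25 reads, differed from neither heart (adjusted p = 0.286 by the same test) nor small intestine (adjusted p = 1) beyond counting error.

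Among Des, Atp2a2 and Dmpk, only Atp2a2 had a higher level in heart than in muscle. Heart had 26.7% (26.4 to 27.1) of 64394 reads and muscle 22.1% (19.7 to 24.8) of 1003, a difference of 4.62 points (Fisher's exact adjusted p = 0.00351). Lung followed with 13.6% (10.4 to 17.5, 354 reads), 8.57 points below muscle (Fisher's exact adjusted p = 0.00115) and 9.71 points above liver (5.96e-08). Liver had 3.85% (2.79 to 5.28, 936 reads), small intestine 2.87% (1.75 to 4.69, 522 reads) and spleen 0 of 67, for which the interval reaches 5.42%. Neither the step from liver to small intestine nor that from small intestine to spleen went beyond counting error (Fisher's exact adjusted p = 0.581 and 0.901). Liver and muscle had nearly equal coverage of this site, 936 and 1003 reads, and levels 18.3 points apart.

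Heart was set against muscle at each of the 6 sites covered in both, to see how the same cytosine is methylated in cardiac and skeletal muscle. A call needed 10 points or more between the tissues together with an adjusted p below 0.05, and by that rule 15.4% of 1645 sites across the table were called and 10.0% were called higher in muscle. Of the 6 sites, the upstream Des site was called, 10.7 points higher in muscle (Fisher's exact adjusted p = 1.37e-12). The downstream Des site lay just outside the rule with 9.74 points. With no minimum difference all 6 passed, against 38.2% of all sites. These 6 had 1003 to 69854 reads per tissue, where the median site had 230 in heart and 266 in muscle, and the part of depth in that count was not tested. Under Bonferroni adjustment Atp2a2 no longer passed (adjusted p = 1, Fisher's exact test). Muscle was higher at the Des and Dmpk sites, 5 of 6, and heart at Atp2a2. Over all 1645 sites muscle was higher at 853. The 5 are 2 sites of Des and 3 of Dmpk, and sites of the same gene are not independent, which also limits the median below. The median of heart minus muscle was -7.37 points over the 6 sites and -0.313 points over all 1645. The heart column is 1 library and the muscle column 4, so the spread between animals in this comparison is not known.

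**Figure D3:**
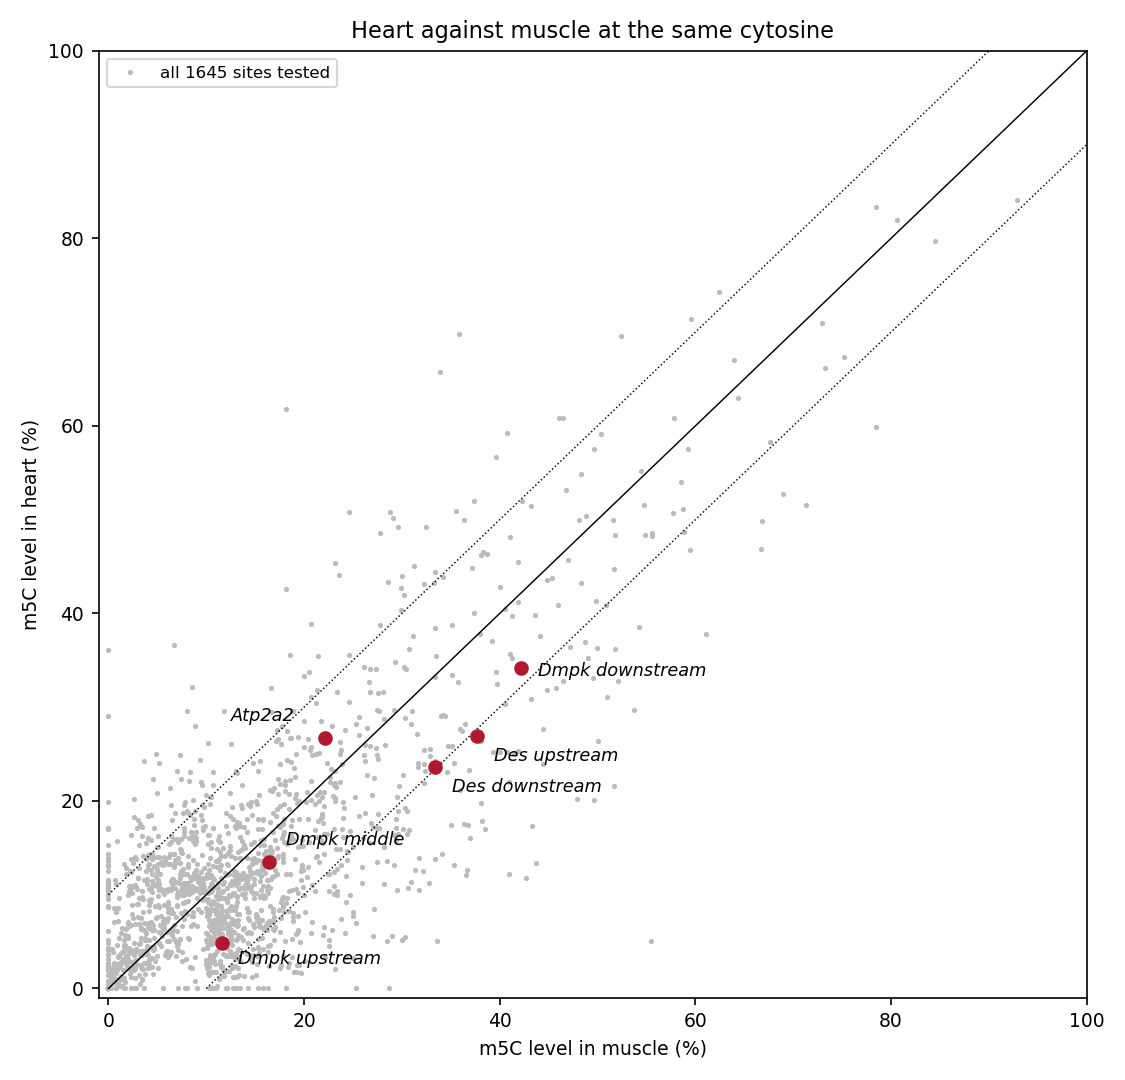
m5C level in heart against muscle (%) for the 1645 cytosines covered by at least 20 reads in both (grey) and the 6 contractile sites among them (red); the solid line marks equal levels and the dotted lines a difference of 10 points. The Des and Dmpk sites lie below the solid line and Atp2a2 above it, and the upstream Des site is just past the lower dotted line.

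As odds of an unconverted read, a scale on which sites of different level can be set side by side, the heart to muscle ratio was 0.611 (95% interval 0.536 to 0.696) at the upstream Des site and 0.618 (0.599 to 0.637) at the downstream one. At the Dmpk sites it was 0.386 (0.347 to 0.431) upstream, 0.796 (0.725 to 0.874) in the middle and 0.713 (0.672 to 0.755) downstream. The upstream Dmpk interval overlaps with neither of the other two Dmpk intervals, although 42 nt separate it from the middle site. Atp2a2 had 1.28 (1.11 to 1.49). The same ratio of small intestine to muscle was 0.0235 (0.00874 to 0.0634) at the upstream Des site and 0.0106 (0.00725 to 0.0155) at the downstream one, and 0.104 (0.0610 to 0.178) at Atp2a2. At the Dmpk sites it was 0.168 (0.120 to 0.234) upstream, 0.205 (0.153 to 0.274) in the middle and 0.301 (0.263 to 0.345) downstream. The intervals of both Des sites lie below those of the 3 Dmpk sites, while the Atp2a2 interval overlaps with the upstream Des and the upstream and middle Dmpk intervals.

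**Figure D4:**
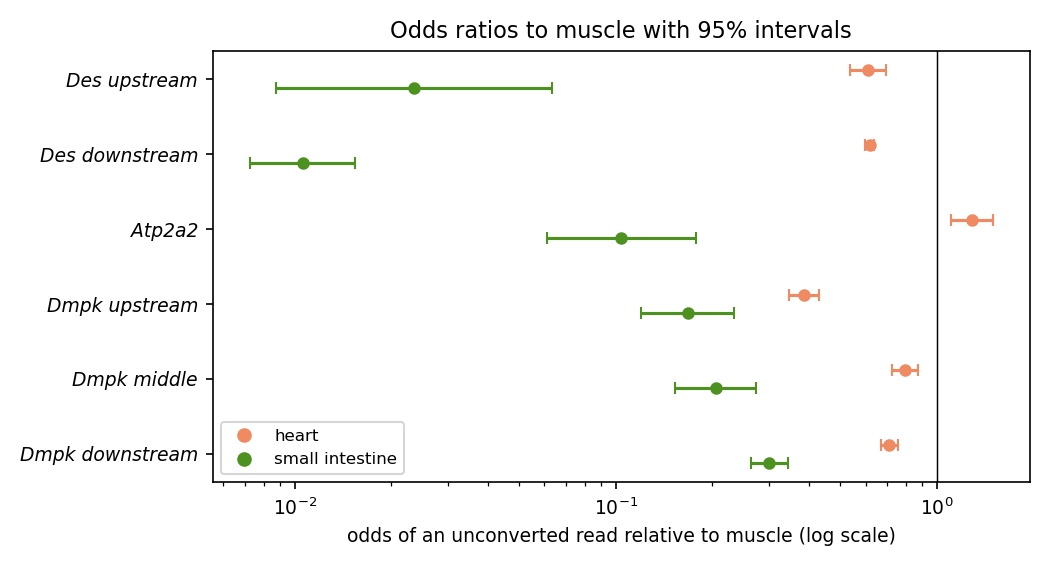
Odds of an unconverted read in heart and in small intestine relative to muscle (log axis) at the 6 sites covered in all of these tissues, with 95% intervals that cover counting error. In heart the Des sites sit at 0.611 and 0.618, the Dmpk sites between 0.386 and 0.796 and Atp2a2 at 1.28; in small intestine the downstream Des site is lowest at 0.0106.

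Muscle and heart were then compared with each of the other tissues by the same rule. Muscle was called higher than liver at 5 of 7 sites tested (27.1% of all sites), higher than small intestine at 5 of 6 (37.4%), higher than lung at 5 of 10 (42.2%) and higher than spleen at 5 of 7 (42.6%). The downstream Des site and the downstream Dmpk site were called in each of these 4. Against lung the downstream Dmpk call rests on 25 lung reads and is close to the limit (Fisher's exact adjusted p = 0.0445). With a minimum of 10 reads 4 of the 10 sites were called against lung, and the share of all sites was not counted there. Against lung the called sites were those of Des and Dmpk, and none of Myh1, Myh4, Actn3, Myoz1 and Atp2a2. Heart was called higher than liver at 3 of 5 (19.6% of all sites), higher than small intestine at 4 of 6 (27.5%), higher than lung at 3 of 6 (33.7%) and higher than spleen at 4 of 6 (34.3%). No site was called lower in muscle or heart than in any of these tissues, and such calls were few over all sites too. For muscle they were 45 of 1372 against liver, 39 of 1397 against small intestine, 19 of 1097 against lung and 19 of 937 against spleen. For heart they were 38 of 1433, 32 of 1465, 14 of 1122 and 16 of 957 in the same order. The comparisons with heart and those with muscle share the columns of the other 4 tissues. The median of muscle minus small intestine was 21.7 points over the 6 sites and 7.49 points over all sites tested, and that of heart minus small intestine 19.7 and 5.86 points. The upstream Dmpk site was called against none of the 4 in heart, where its level is 4.81%. With no minimum difference 5 of 6 sites were called between heart and lung, against 618 of 1122 over all sites. With at least 50 reads 2 of 3 were called between heart and spleen and 3 of 3 between muscle and spleen. The share of all sites called at that minimum was not counted, so these 2 counts have no background beside them.

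Other genes of the contractile apparatus were taken from 7 lists of thick and thin filament, Z-disc, M-band, filament and costamere, calcium handling and kinase genes. Of their 142 genes besides the 7 above, 29 had 51 sites, of which 32 in 23 genes were covered in heart and muscle. Of these 32, 2 were called higher in heart and 4 higher in muscle, which together is near the share of 15.4% over all sites, and the median of heart minus muscle was 0.202 points with 16 sites on either side of 0. Higher in heart were a site of Ttn, the giant spring of the sarcomere, at 76880218 on chromosome 2, with 11.6% of 855 reads against 0.630% of 1587, and Myom1, an M-band protein, with 13.8% against 2.85%. The other Ttn sites were not called and did not share a direction. Those at 76881596 and 76883992 were higher in heart, and that at 76715275 was lower, with 6.19% in heart against 10.95% in muscle. Among those higher in muscle were Synm with 10.9% against 0 of 206 reads, Cacna2d1, a calcium channel subunit, with 28.1% against 11.1%, and the calmodulin kinase Camk2b with 22.8% against 6.19%. The highest levels in these other genes were in Cacna1s, the voltage sensor of skeletal muscle, with 54.6% in muscle at 136070728 and 51.4% of 175 heart reads and 43.2% of muscle reads at 136118808, both on chromosome 1.

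Fast skeletal isoforms and heart shared no covered site. Of 18 fast skeletal isoform genes 5 had 16 sites, all with at least 20 reads in muscle and none with 20 in heart; 12 of the 16 lie in Ryr1. Their median level in muscle was 17.8%, against 11.8% over all muscle sites. These sites had few or no reads outside muscle, and how sites entered the table is not stated. The gap between the medians may therefore depend on the listing. Of 23 slow skeletal and cardiac isoform genes, Atp2a2 and Myl4, the atrial myosin light chain, had 1 site each. Myl4 had 15.9% of 18007 reads in heart and 7.44% of 618 in muscle, and was not called. The intermediate filament and costamere list had 7 sites, with 2 called higher in muscle (10.0% of all sites), none called higher in heart and a median of -9.72 points. Both Des sites are among the 7, and the calls are the upstream Des site and Synm. The thick filament list had 5 covered sites, 4 of them in Ttn, with a median of 8.44 points. Cardiac counterparts of the fast genes, such as Myh6, Myh7, Actn2 and Myoz2, were not analysed here, so a heart isoform was not set against its skeletal partner.

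For the 5 sites covered in all 6 tissues, the sites of other genes with the most similar levels were found among 802, by the mean absolute difference over 6 tissues. The downstream Des site was nearest to sites in Ccny, Usp24 and Ankrd11, 2.48 to 2.65 points away. Atp2a2 was nearest to sites in Igf2r, Klc2 and Idh3b, at 3.30 points or less. The upstream Dmpk site was nearest to sites in Coq2, Zfp106 and Larp1 at 0.346 to 0.546 points, and the middle one to sites in Eif3h and Use1 at 1.10 and 1.32 points. The downstream Dmpk site stood further from its nearest sites, in Slc43a2, Klc2 and Fam132a, at 3.31 to 5.94 points. None of these genes is in the contractile lists. Small distances come more easily to sites with low levels, and 6 values per site allow no test.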

How the data were processed

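RNA bisulfite sequencing of 12 libraries was analysed from a table of cytosines. The submitters' processing notes name mm10 and, with no role or order, HISAT2 2.10, SAMtools, Trimmomatic, cutadapt and bcl2fastq 2.17. No source used here gives the site filter or how libraries were merged. Of the columns deposited by the authors, coverage is a count of reads, the m5C level is a fraction (printed as percent), and the site call is true or false. Unconverted reads were the level times the coverage, within 0.000179 of a whole number in 9926 cells.

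Tissue pairs were compared over all sites with 20 reads in both with Fisher's exact test, two-sided (scipy 1.17.1; Benjamini-Hochberg adjustment within each of 15 pairs). A call needed an adjusted p under 0.05 and 10 points. Libraries could not serve as replicates, since columns are per tissue. The test was checked on simulated data that held counting error alone, so the check does not cover differences between animals or libraries. Intervals are Wilson (95%) for levels and Woolf for odds ratios; odds ratios were added after the levels were seen. Reads carry no stated molecular identifiers, so all of this covers counting error only.

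The 7 genes, lists and rules were chosen with earlier results of these data known. Named besides them are the 3 most similar sites of each fully covered site and, in the lists, called sites and the 2 highest in each of muscle and heart; some of these are not reported here. Alternatives were other coverage minimums, no minimum difference, Bonferroni adjustment, a chi-square test, and only sites the authors called. Sequences around the sites were not used here.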

Additional observations from a re-analysis of the deposited data

How the results depend on the processing

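The alternatives for heart against muscle (coverage of 10 or 50 reads, no minimum difference, Bonferroni adjustment, a chi-square test, only sites the authors called) change the sites tested or the p, not the difference itself. The upstream Des call held in each. With no minimum difference, 6 of 6 sites in place of 1 were called between heart and muscle, against 38.2% of all sites. In all contractile lists, members included, 28 of 38 were called in place of 7. Between heart and lung 5 of 6 were called in place of 3, against 618 of 1122 over all sites. Between liver and lung it was 3 of 7 in place of 1 (278 of 1007 over all sites). Between small intestine and lung it was 2 of 6 in place of 1 (119 of 1055), and between lung and spleen 2 of 7 in place of 1 (25 of 889). With at least 50 reads, 2 in place of 4 were called between heart and spleen and 3 in place of 5 between muscle and spleen, where 3 sites remained to be tested in each. The share of all sites called at 50 reads was not counted. Of 54 counts recomputed, the other 46 stayed within 1.5 times. The Atp2a2 difference between heart and muscle had an adjusted p of 1 with Bonferroni adjustment and 0.00290 to 0.00453 otherwise, by Fisher's exact or the chi-square test. No replicate could be left out and no paired analysis was possible because the table has 1 set of columns per tissue. Depth limits lung, liver and spleen, where covered sites had 21 to 981 reads.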

Other observations

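The Des sites lie 199 nt apart on the same strand, yet their coverage differed by 12.2 to 30.1 times between them, 15.9 times in heart and 30.1 times in muscle, with the downstream site the deeper in each of 5 tissues. The coverage of the fast-fibre sites relative to Myh4 is given as values with no test. Coverage at the Myh1 site was 73.7% of that at the Myh4 site in lung and 1.01% in muscle; at the Actn3 site it was 37.3% and 13.8%, and at the Myoz1 site 14.9% and 3.05%. In liver the Myh1 site had 24 reads and the Myh4 site 48. These ratios rest on 38 to 255 reads in lung.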
